A study of Mus musculus with 2 samples.

Results

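The cytosolic ribosomal protein genes were taken from the feature table by name: symbols that begin with Rpl or Rps and a digit, with Rplp0, Rplp1, Rplp2 and Rpsa added and with the -ps pseudogene symbols and the Rps6k kinase genes left out. Of 55415 features, 94 symbols met that rule and 92 had at least 50 UMIs (unique molecular identifiers, read here as counted molecules) over both libraries. They comprised 55 large subunit (Rpl) and 37 small subunit (Rps) symbols. The remaining symbols were Rps3a2, with 9 UMIs in the positive and 22 in the negative library, and Rps12l1, with 0 UMIs in both. The name does not hold for every member: Rps19bp1 encodes a protein that binds Rps19 and is no subunit, and 14 symbols are paralogs or retrocopies of a subunit gene, which leaves 77.

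The cells were mouse embryonic stem cells of 1 line that carried 2 constructs: GFP driven by the promoter of MERVL, an endogenous retrovirus that is transcribed in the 2C-like state, a rare state resembling the 2-cell embryo, and mIFP fused to histone H2B for following cells. Both groups carried both constructs and differed by the reporter, with 1 single-cell library from MERVL-GFP positive cells and 1 from MERVL-GFP negative cells. The study set out to learn what becomes of 2C-like cells. With 1 library per group no test across samples was possible, no difference has a replicate check, and the state of the cells and the library cannot be told apart.

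The ribosome joins amino acids into protein and is built from ribosomal RNA and a set of proteins that divide into a large subunit, which holds the peptidyl transferase centre and the exit tunnel, and a small subunit, which reads the messenger RNA. The mRNAs of nearly all these proteins begin with a run of pyrimidines after a leading C (the terminal oligopyrimidine motif), through which mTOR and Larp1 control their translation together. Some subunits have paralogs with restricted expression, such as Rpl3l in striated muscle and Rpl10l and Rpl39l in the male germ line.

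After filtering, 4596 positive and 3832 negative cells remained, with medians of 29554.5 and 39099.5 UMIs, and the libraries shared 3 barcodes. Summed stem cell markers were at 13896 and 13122 CPM (counts per 1000000 UMIs) in the positive and the negative library. Dppa5a alone gave 11499 and 10359 CPM of these sums, and 2 of the 7 markers, Dppa5a and Nanog, were higher in the positive library. The 15 markers of the 2C-like state, all higher in the positive library, summed to 701 and 1.45 CPM. Mitochondrially encoded genes took a median of 2.56% of a positive and 1.60% of a negative cell's UMIs. All 9 primitive endoderm markers were higher in the positive library, with sums of 391 and 170 CPM and none at 0. Trophoblast markers, 6 of 7 higher in the positive library, summed to 95.8 and 58.3 CPM. Fibroblast markers, 7 of 7 higher there, summed to 228 and 214 CPM, with 2 of those genes at 0 in the negative library. Vim alone gave 215 and 211 CPM of these sums, and Col3a1, Postn and Dcn had at most 6 UMIs in a library. The part of these differences in the results below was not tested, except where a value without the cells in question is given.

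The members together made up 22.95% of the UMIs of the positive library and 26.19% of those of the negative library. The exact binomial 95% intervals, 22.95% to 22.96% and 26.19% to 26.20%, cover counting error only, as do all intervals given here. Large subunit genes held 11.98% and 13.81% of UMIs, and small subunit genes held 10.98% and 12.38%. Both subunits thus had the lower share in the positive library, and the large subunit made up 52.18% of the pool of member UMIs there and 52.73% in the negative library. Per cell, the median share was 22.9% in the positive library, with an SD over cells of 3.31 and a 5th to 95th percentile range of 17.4% to 28.2%. In the negative library it was 26.2%, with an SD of 2.38 and a range of 22.6% to 30.2%. The cells overlapped: 4011 of 4596 positive cells (87.3%) lay below the negative median, and 249 of 3832 negative cells (6.50%) lay below the positive median.

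The shares were also computed in subsets of cells. Among cells with 20000 to 40000 UMIs, 2920 positive and 1904 negative, they were 23.10% and 26.49%; the range brings depth closer without matching it, with medians of 29800 and 33772.5 UMIs. Without cells that had at least 3 primitive endoderm marker UMIs after thinning, 3465 positive and 3551 negative cells gave 22.88% and 26.24%. With mitochondrially encoded genes left out of the denominator, the shares were 23.57% and 26.63%.

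Gene by gene, 77 of the 92 members were lower in the positive library and 15 were higher, on log2(CPM + 1). The median log2 ratio, positive over negative, was -0.23 over members, -0.26 over the large and -0.21 over the small subunit. All 8042 genes with at least 50 UMIs and 10 CPM in a library had a median of 0.14, and the 245 genes outside the list with at least 500 CPM had a median of -0.15, so abundant genes as a whole also lay below the rest. Of the 89 members that passed the 10 CPM minimum, 39 (43.8%) were at least 1.2-fold lower, where the background over all tested genes was 17.4%, and 7 (7.87%) were at least 1.2-fold higher, where the background was 39.1%. Of the 245 abundant genes outside the list, 95 (38.8%) were lower and 57 (23.3%) higher by that fold, and on the lower side this share is close to that of the members. At 1.5-fold, 2 members were lower and 3 higher, with backgrounds of 4.89% and 17.6%. No member reached a ratio of 2 in either direction, where the backgrounds were 0.995% lower and 7.01% higher. These counts depend on the scaling: with edgeR's TMM factors or with median-of-ratios factors, 75 members were at least 1.2-fold lower and 3 higher, as the median of all genes shifted from 0.14 to -0.085 and -0.10. The backgrounds were then 34.9% lower and 21.4% higher with TMM, and 36.5% and 20.5% with median-of-ratios factors. The 3 higher members under both were Rpl10l, Rpl13a and Rpl23a.

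**Figure D1:**
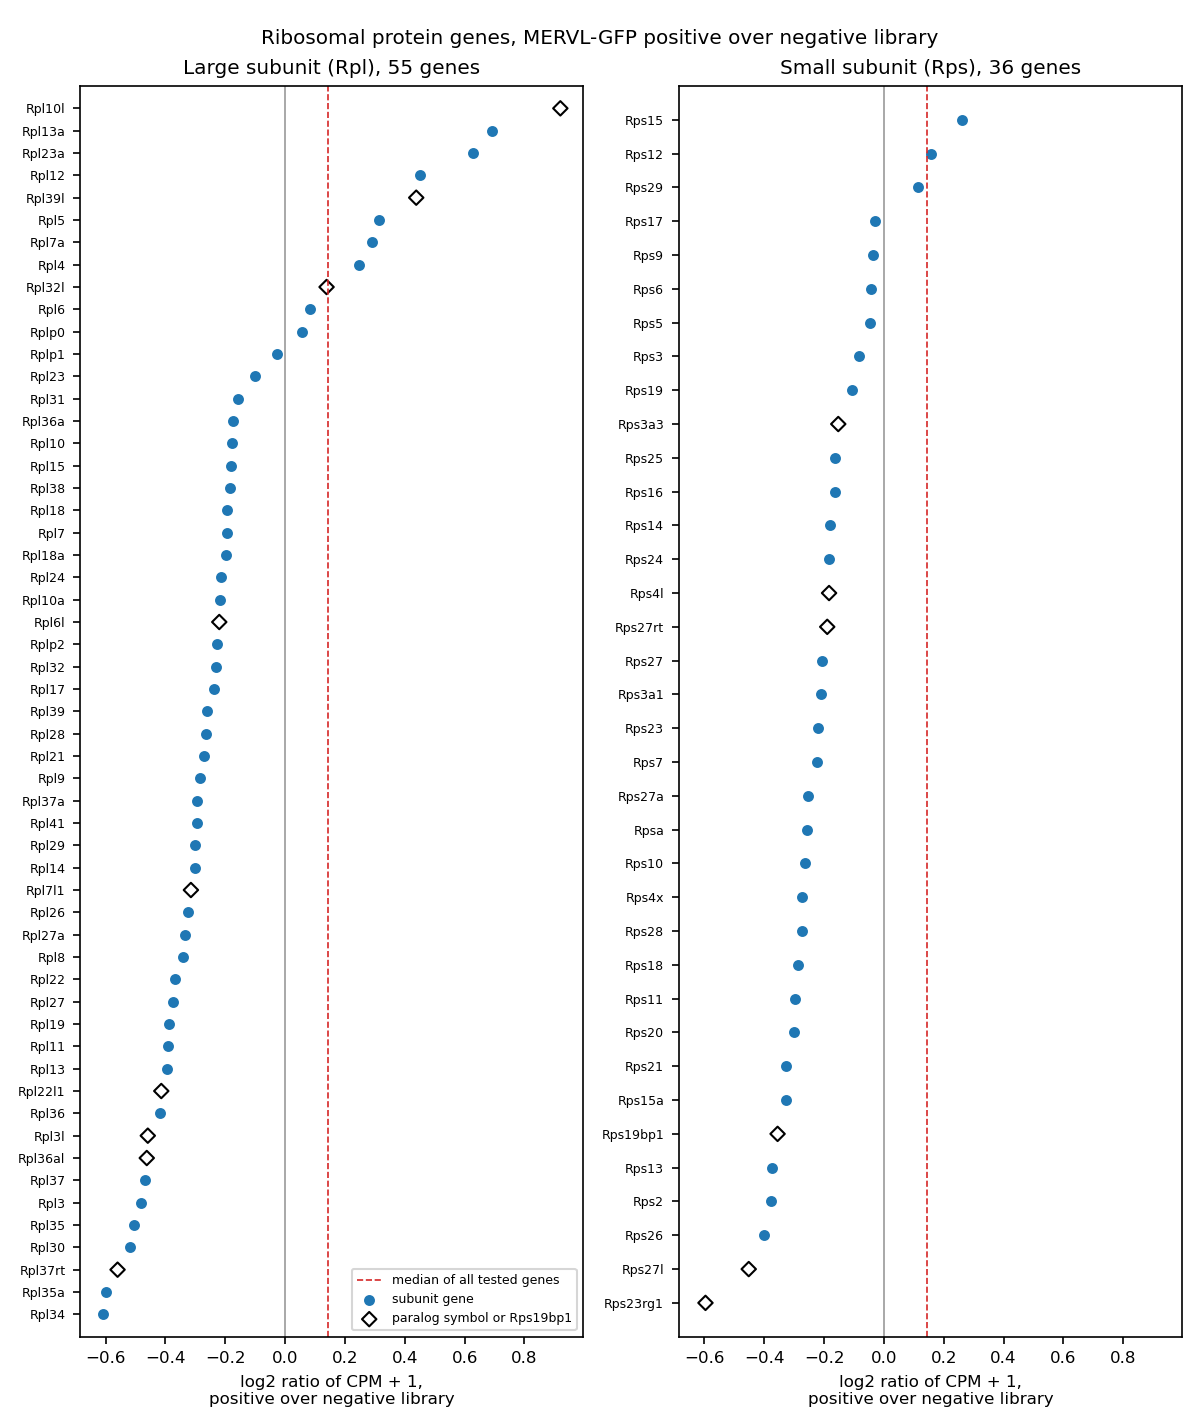
Log2 ratio of CPM + 1 between the libraries for 91 of the 92 genes, positive over negative, large subunit left and small subunit right, with 1 library per group and so no error bars. Most genes lie between -0.61 and 0, left of the dashed line at the median of all tested genes (0.14), and the genes farthest right are all large subunit symbols.

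The 7 members past 1.2-fold on the higher side were all large subunit symbols, 7 of 53, with the paralogs Rpl10l and Rpl39l among them, and none of 36 small subunit symbols. On the lower side there were 26 large and 13 small subunit symbols, the latter with Rps19bp1 among them. The backgrounds over all tested genes were 39.1% higher and 17.4% lower, so the share on the higher side was below the background in both subunits. The highest ratio among subunit genes was that of Rpl13a, a large subunit protein that also has a role in the interferon response of myeloid cells. It was at 465 CPM in the positive and 287 CPM in the negative library, a ratio of 1.62 (exact conditional 95% interval 1.60 to 1.64). Rpl23a, which sits near the mouth of the exit tunnel, was at 1833 and 1187 CPM, a ratio of 1.54 (1.54 to 1.55). Rpl12, a protein at the base of the ribosomal stalk, was at 5554 and 4067 CPM, a log2 ratio of 0.45. Rpl5, which with Rpl11 and a small ribosomal RNA can bind Mdm2, was at 1746 and 1405 CPM, and Rpl7a was at 2407 and 1968 CPM. Rpl11 was on the other side from its partner Rpl5, at 2575 and 3378 CPM. Rpl13a, Rpl23a and Rpl12 had the same direction under all 13 settings tried.

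Among members past the 10 CPM minimum, the 5 lowest ratios also belonged to large subunit symbols. Rpl34 had 568 CPM in positive and 867 CPM in negative cells, which is -0.61 on the log2 scale. Rpl35a, mutated in some cases of Diamond-Blackfan anaemia, was at 1836 and 2782 CPM, or -0.60. After Rpl37rt, a processed pseudogene at -0.56, Rpl30 (1381 and 1977 CPM) and Rpl35, another protein of the tunnel exit (674 and 957 CPM), followed at -0.52 and -0.51. Rpl3, which reaches towards the peptidyl transferase centre, was at 2537 and 3545 CPM. In the small subunit the range was narrower: the highest was Rps15, at 2085 and 1741 CPM with a log2 ratio of 0.26, and the lowest past the minimum was Rps27l at -0.45. Rps23rg1, a small subunit symbol under that minimum, had -0.60. Every one of these differences is larger than its counting interval, which for Rpl34 ran from 0.650 to 0.661 around a ratio of 0.655. For Rps23rg1, with few UMIs, the interval was wider, from 0.539 to 0.674 around 0.603. The spread between replicate libraries is unknown.

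Ranked by the higher of their CPM in the 2 libraries, the top 10 members included Rps24, Rps20, Rps12, Rpl23, Rpl32, Rps18, Rplp1, Rpl8 and Rpl12. CPM is not divided by transcript length, so the order is one of molecules only if the counts are UMIs, as read here. Rps24 was at 7443 CPM in the positive and 8447 CPM in the negative library. Rps20 was at 6049 and 7457 CPM, Rps18 at 5100 and 6223 CPM, and Rpl8 at 4394 and 5573 CPM. All 4 were lower in the positive library under every scaling tried. Rpl32 (5499 and 6450 CPM) and Rpl23 (6215 and 6657 CPM) were also lower there, with log2 ratios of -0.23 and -0.10. Rplp1, a stalk protein, was nearly level at 5752 and 5865 CPM. Rps12 was at 7079 and 6341 CPM, and its log2 ratio of 0.16 became -0.078 with TMM scaling. Rpl12 alone among these named genes was higher in the positive library under every scaling.

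A number of ribosomal protein genes carry small nucleolar RNAs (snoRNAs, guides for rRNA modification) in their introns. In the GENCODE M21 annotation 30 members contain a snoRNA gene on their strand and 62 contain none, a split looked at after the values were seen. The hosts had a median log2 ratio between libraries of -0.22, with 9 of 30 above 0, and the others a median of -0.26, with 6 of 62 above 0. Of all 19341 genes with at least 50 UMIs, 13066 were above 0, a larger share than in either group. Rpl13a, host of Snord32a, Snord33, Snord34 and Snord35a, and Rpl23a, Rpl12, Rpl5, Rpl7a, Rpl4, Rps12 and Rpl6 were among the hosts above 0.

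Within the positive library, cells were placed by their UMIs of Zscan4a to Zscan4f, the gene family that marks the 2C-like state, after every cell with at least 10000 UMIs had been thinned at random to 10000; 194 positive and 8 negative cells were too shallow. There were 1933 cells with 0, 1264 with 1 to 2, 716 with 3 to 9 and 489 with 10 or more Zscan4 UMIs, and the last class held 253 cells with 10 to 19 and 236 with 20 or more. Of 3824 negative cells 10 (0.262%) had any, none of them 10 or more. Cells with 0 thinned UMIs still held 31.3 CPM of Zscan4 in all their UMIs, and the part of free RNA in the low classes was not tested.

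The share of ribosomal protein UMIs differed little between most classes: 23.02% at 0, 23.04% at 1 to 2, 23.20% at 3 to 9 and 23.07% at 10 to 19 Zscan4 UMIs. It was lower, at 21.40%, in the 236 cells with 20 or more. For the class with 10 or more as a whole the share was 22.33%. All positive classes thus lay below the 26.20% of negative cells without Zscan4, including the positive cells with 0. The spread between cells was wider at higher Zscan4: the SD of the per-cell share was 2.79, 2.96, 3.34 and 4.23 percentage points from 0 to 10 or more. Median depth, not thinned, was 32916, 31033.5, 27007 and 19996 UMIs over the same classes, the mitochondrial share 2.40%, 2.52%, 2.79% and 3.22%, and the primitive endoderm sum 412, 433, 334 and 218 CPM. Stem cell markers summed to 14842, 14647, 12490 and 8607 CPM, trophoblast markers to 123, 69.6, 85.1 and 58.7 CPM and fibroblast markers to 244, 238, 190 and 172 CPM, and their part in the result was not tested. In cells with 20000 to 40000 UMIs the shares were 23.12% at 0 and 22.27% at 10 or more, and the part of depth in the wider spread was not tested.

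**Figure D2:**
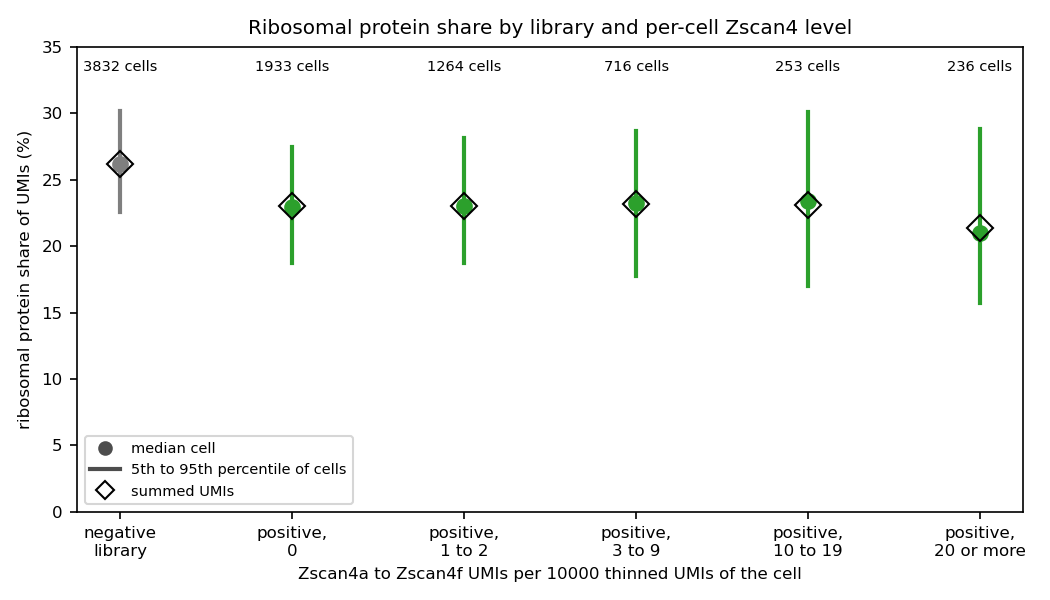
Share of each cell's UMIs from the 92 genes, in percent, for the negative library and for positive cells by thinned Zscan4 UMIs; points are median cells, lines the 5th to 95th percentile of cells, diamonds the share of summed UMIs. All positive classes lie near 23% except 20 or more (21.40%), and all lie below the negative library (26.19%), with longer lines at high Zscan4.

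Across the 92 members the median log2 ratio of cells with 10 or more over cells with 0 Zscan4 UMIs was -0.07, with 61 below and 31 above 0, and it became 0.059 with TMM and 0.071 with median-of-ratios scaling. The large subunit median was -0.10 and the small subunit median -0.03. The 8457 genes tested had a median of -0.11, and the 245 abundant genes outside the list -0.34. Of 89 members past the minimum, 11 (12.4%) were at least 1.2-fold lower, where the background was 38.5%, and 3 (3.37%) were at least 1.2-fold higher, where it was 27.2%. Without the paralogs and Rps19bp1, 5 of 77 (6.49%) were lower and 2 (2.60%) higher by that fold. Of the 245 abundant genes outside the list, 136 (55.5%) were lower and 34 (13.9%) higher by that fold. With TMM scaling the counts of members were 4 lower and 11 higher, with backgrounds of 28.2% and 33.9%. With median-of-ratios factors they were 4 and 12, with backgrounds of 27.4% and 34.7%. The 4 lower members under both were Rps27l, Rps19bp1, Rpl14 and Rpl7l1. The counts also depend on the class: for 20 or more Zscan4 UMIs against 0 they were 19 lower and 4 higher, with backgrounds of 42.5% and 29.2%. For 5 or more after thinning to 5000 UMIs they were 6 and 3, with backgrounds of 36.0% and 26.1%. At 1.5-fold there were 2 lower, the paralog Rps27l and Rps19bp1 (background 17.3%), and 0 higher (16.0%). At a ratio of 2 there were none in either direction (4.69% lower and 9.67% higher). The members' shares were below the background in both directions and at each fold. This comparison uses cells of the positive library that also enter the comparison between libraries, so the values of both are given side by side and not related to each other.

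Rplp0, the protein that anchors the stalk, was higher at each step of Zscan4, at 2657, 2789, 3129 and 3431 CPM in the classes 0, 1 to 2, 3 to 9 and 10 or more, and at 3523 CPM in cells with 20 or more. Its ratio of the highest of the 4 classes over 0 was 1.29 (1.28 to 1.31). The negative library had 2715 CPM, within the range of the positive classes, and the log2 ratio between libraries was 0.06, which became -0.18 with TMM scaling. Rpl23a followed the same order, at 1729, 1790, 2048 and 2221 CPM, all above the 1187 CPM of the negative library. Rpl7a was at 2298, 2385, 2647 and 2722 CPM. For Rplp0 and Rpl23a the direction over Zscan4 classes held in all 11 settings.

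Rpl13a, in contrast to Rpl23a, was nearly level over the classes, at 458, 459, 501 and 475 CPM, each above the 287 CPM of the negative library. Rpl12 was at 5485, 5621, 5781 and 5519 CPM. For both genes positive cells without Zscan4 UMIs already differed from the negative library. Their ratios over Zscan4 were 1.04 (1.01 to 1.07) and 1.01 (0.998 to 1.02), and both turned below 1 when only cells with 20 or more were used.

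Rpl14, a large subunit protein, was at 2601, 2507, 2239 and 1842 CPM over the 4 classes and at 3024 CPM in the negative library. The log2 ratio of 10 or more over 0 was -0.50, the lowest of any subunit gene outside the paralogs. Rps19bp1, the Rps19-binding protein, had 89.7, 82.2, 70.0 and 55.4 CPM and a log2 ratio of -0.68. Rpl3 (2630 to 2117 CPM) and Rpl11 (2666 to 2185 CPM) were at least 1.2-fold lower in the highest of the 4 classes, as were Rpl35 (693 to 571 CPM) and Rpl27 (1239 to 1027 CPM). None of these 4 stayed past 1.2-fold with TMM or median-of-ratios scaling or after thinning to 5000 UMIs, and all 4 were past it at 20 or more Zscan4 UMIs. Rpl34, lowest between libraries, was at 589, 574, 534 and 497 CPM, a log2 ratio of -0.24. Rps20 was the other way, at 5824, 6070, 6531 and 6586 CPM.

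**Figure D3:**
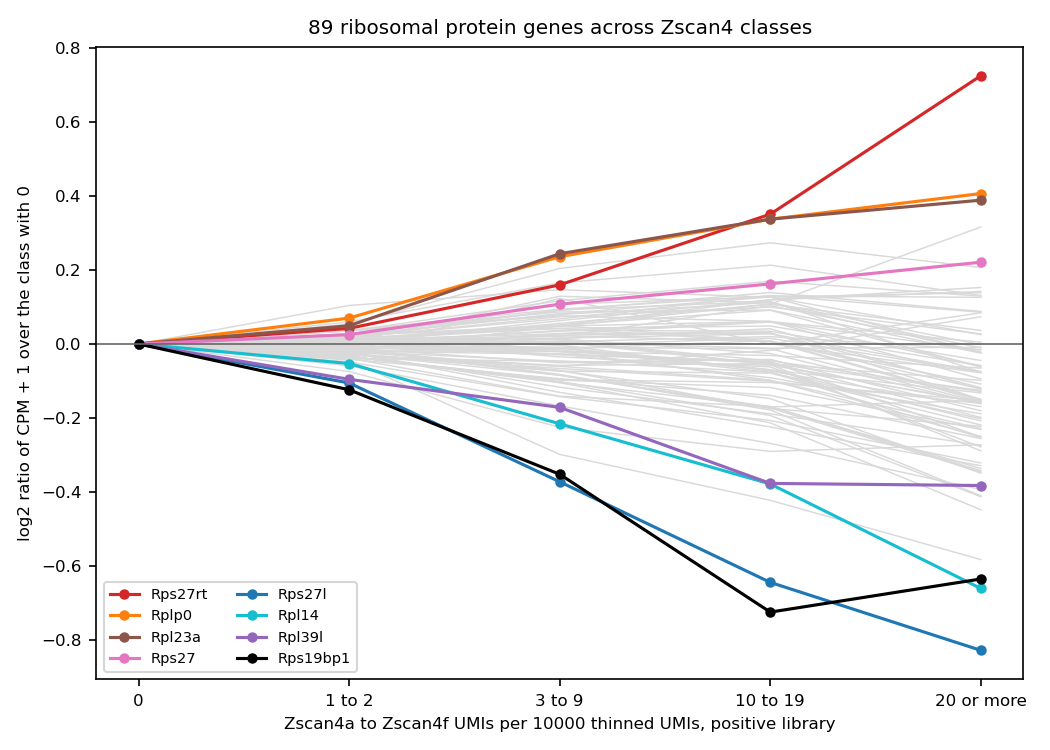
Log2 ratio of CPM + 1 in each Zscan4 class of the positive library over the class with 0, for 89 genes in grey and 8 of them in colour; each point is the sum over the cells of 1 class of 1 library, with no error bars. Most grey lines stay close to 0, Rps27rt, Rplp0 and Rpl23a climb, and Rps27l, Rps19bp1 and Rpl14 descend.

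Rps27l (ENSMUSG00000036781), a paralog of Rps27 known as a p53 target, had the lowest ratio over Zscan4 classes. It was at 1525 CPM in cells with 0, 1418 with 1 to 2, 1178 with 3 to 9, 975 with 10 to 19 and 858 with 20 or more. Between 10 or more and 0 the log2 ratio was -0.72, a ratio of 0.605 (0.593 to 0.618). The negative library had 1903 CPM, above every positive class. Its parent Rps27 went the other way, at 1218, 1239, 1312 and 1388 CPM over the 4 classes. Rps27l therefore made up 55.6% of the pair's UMIs at 0 and 39.9% at 10 or more (39.3% to 40.6%), and a share within a pair does not depend on scaling. Between libraries the shares were 52.6% in the positive and 56.8% in the negative. The coding sequences are shown because the reads have to be told apart by their differences: both have 255 bases and 76.1% identity, and capitals in the first mark the 61 bases that differ from the second. Rps27l lies at chr9:66946086-66949516 and Rps27 at chr3:90212522-90213651 (GRCm38, GENCODE M21, whole genes).
Rps27l: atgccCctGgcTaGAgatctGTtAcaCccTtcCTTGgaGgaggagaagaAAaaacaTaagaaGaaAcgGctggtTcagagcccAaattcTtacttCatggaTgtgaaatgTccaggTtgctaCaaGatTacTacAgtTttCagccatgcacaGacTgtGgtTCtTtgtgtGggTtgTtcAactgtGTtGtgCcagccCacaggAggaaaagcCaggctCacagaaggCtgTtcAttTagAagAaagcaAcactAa
Rps27: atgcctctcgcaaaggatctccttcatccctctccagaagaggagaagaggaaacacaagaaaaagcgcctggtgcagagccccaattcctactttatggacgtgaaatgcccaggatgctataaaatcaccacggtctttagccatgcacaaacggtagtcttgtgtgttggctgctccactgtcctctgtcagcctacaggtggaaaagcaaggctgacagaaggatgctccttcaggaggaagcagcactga

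Rps27rt (ENSMUSG00000050621), a retrocopy of Rps27, had the highest ratio of all members over Zscan4 classes. Its level was 96.6, 99.5, 108 and 140 CPM in the 4 classes, 160 CPM with 20 or more and 118 CPM in the negative library, and the log2 ratio of 10 or more over 0 was 0.53. As a share of the pair with Rps27 it went from 7.35% to 9.15%. Its coding sequence of 255 bases is identical to that of Rps27 (100%), so a read inside it fits both genes and their counts are uncertain. The start regions do differ, as the 30 bases around each RefSeq start show, 15 before it and 15 from it on, at chr3:90213634-90213663 and chr9:114982725-114982754, minus strand (GRCm38.p6); capitals mark CTTTCC, which opens the shared stretch.
Rps27: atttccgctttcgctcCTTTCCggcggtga
Rps27rt: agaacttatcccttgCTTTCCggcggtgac

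Of the 69 members with a RefSeq promoter window of 300 bases (250 before and 50 from the start on), 39.1% held CTTTCC on the gene strand, against 16.0% of the 27025 genes with such a window. CCGGAA, the core bound by ETS factors such as Gabpa, searched on both strands, was in 52.2% of the members and 16.7% of those 27025 genes. The motifs can overlap, as in the Rps27 window, where CTTTCC is followed by GG. The 27 members with CTTTCC had a median log2 ratio between libraries of -0.19 and the 42 without it -0.28. For CCGGAA the medians were -0.26 with and -0.22 without. A match is a match of letters only.

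Rpl39l (ENSMUSG00000039209), the paralog of the tunnel protein Rpl39, was higher in the positive library, at 277 CPM against 204 CPM, with a ratio of 1.36 (1.34 to 1.38). Within that library it was lower with more Zscan4, at 294, 275, 261 and 226 CPM, a log2 ratio of -0.38. Every class was above the negative library, and the class nearest to it was the one with the most Zscan4. Rpl39 itself was at 2882 CPM in the positive and 3454 CPM in the negative library and nearly level over the classes, between 2858 and 2944 CPM. The share of Rpl39l in the pair was 8.76% in the positive (8.68% to 8.85%) and 5.58% in the negative library (5.52% to 5.64%), and it was 9.32% at 0 and 7.28% at 10 or more. Both coding sequences, printed whole because the pair is separated by few bases, have 156 bases including the stop; 23 differ, in capitals, which is 85.3% identity. Rpl39l lies at chr16:10170226-10174911 and Rpl39 at chrX:37082520-37085402 (GRCm38).
Rpl39l: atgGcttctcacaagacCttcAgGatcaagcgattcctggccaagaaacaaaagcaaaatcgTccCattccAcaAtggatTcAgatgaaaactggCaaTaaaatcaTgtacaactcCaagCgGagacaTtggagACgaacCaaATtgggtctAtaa
Rpl39: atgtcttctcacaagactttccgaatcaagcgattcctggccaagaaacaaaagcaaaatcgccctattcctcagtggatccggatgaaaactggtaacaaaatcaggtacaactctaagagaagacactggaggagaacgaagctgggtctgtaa

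Rpl10l (ENSMUSG00000060499), an autosomal retrogene of the X-linked Rpl10 that takes its place in male germ cells, had the highest ratio of all members between libraries. It was at 76.1 CPM in the positive and 39.8 CPM in the negative library, a ratio of 1.91 (1.86 to 1.98) and a log2 ratio of 0.92. Rpl10 was at 1751 and 1979 CPM. The share of Rpl10l in the pair was 4.17% and 1.97%, and the intervals of 4.09% to 4.24% and 1.92% to 2.02% do not overlap. Over the Zscan4 classes the share was 3.98%, 4.31%, 4.31% and 4.49%, so that cells with 0 were already at more than the negative level. Over 645 coding bases the genes share 84.8%. The first 150 bases are shown as an example of how densely the genes differ, with 25 differing bases in capitals; Rpl10l lies at chr12:66283379-66284401 and Rpl10 at chrX:74270812-74273135 (GRCm38).
Rpl10l: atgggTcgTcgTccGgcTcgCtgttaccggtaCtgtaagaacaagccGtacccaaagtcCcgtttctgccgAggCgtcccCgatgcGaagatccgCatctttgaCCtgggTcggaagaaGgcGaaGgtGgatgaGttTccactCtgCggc
Rpl10: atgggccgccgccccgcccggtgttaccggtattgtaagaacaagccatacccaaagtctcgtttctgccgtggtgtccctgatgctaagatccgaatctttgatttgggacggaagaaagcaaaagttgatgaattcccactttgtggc

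The other paralogs are given by their levels and their shares. Rpl3l, the muscle paralog of Rpl3 (73.3% coding identity), was near the floor at 2.38 and 3.64 CPM, from 329 and 570 UMIs, and made up 0.0937% and 0.103% of its pair. Rpl36al was at 356 and 491 CPM, 16.7% and 19.7% of its pair with Rpl36a, and its share was 17.6% at 0 and 14.4% at 10 or more Zscan4 UMIs. Rpl7l1, which acts in ribosome assembly, was at 244 and 304 CPM and 13.5% and 14.5% of its pair with Rpl7. Over Zscan4 classes it was at 261, 253, 212 and 185 CPM, and its share went from 14.2% to 11.0%. Rpl22l1, at 758 and 1010 CPM, was lower in parallel with Rpl22, so that its share was 22.4% and 23.0%. Rps23rg1, derived from Rps23 but named differently in GENCODE M21, was at 3.51 and 5.82 CPM, below the 10 CPM minimum.

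Some symbols are processed pseudogenes without a coding sequence in GENCODE M21, and their counts depend on how reads that fit several copies were treated, which is not given in the sources used here. Rps3a3 held 83.5% of the UMIs of its pair with Rps3a1 in the positive and 83.0% in the negative library, more than the coding gene. Rps4l held 23.2% and 22.1% of its pair with Rps4x, and 24.4% at 0 against 19.8% at 10 or more Zscan4 UMIs. Rpl37rt was at 193 and 285 CPM, a log2 ratio of -0.56, and over Zscan4 classes its share of the pair with Rpl37 went from 6.43% to 8.48%. Rpl6l (18.4 and 21.5 CPM) and Rpl32l (1.14 and 0.946 CPM) were low. The 322 -ps symbols outside the rule together took 0.256% and 0.329% of UMIs.

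**Figure D4:**
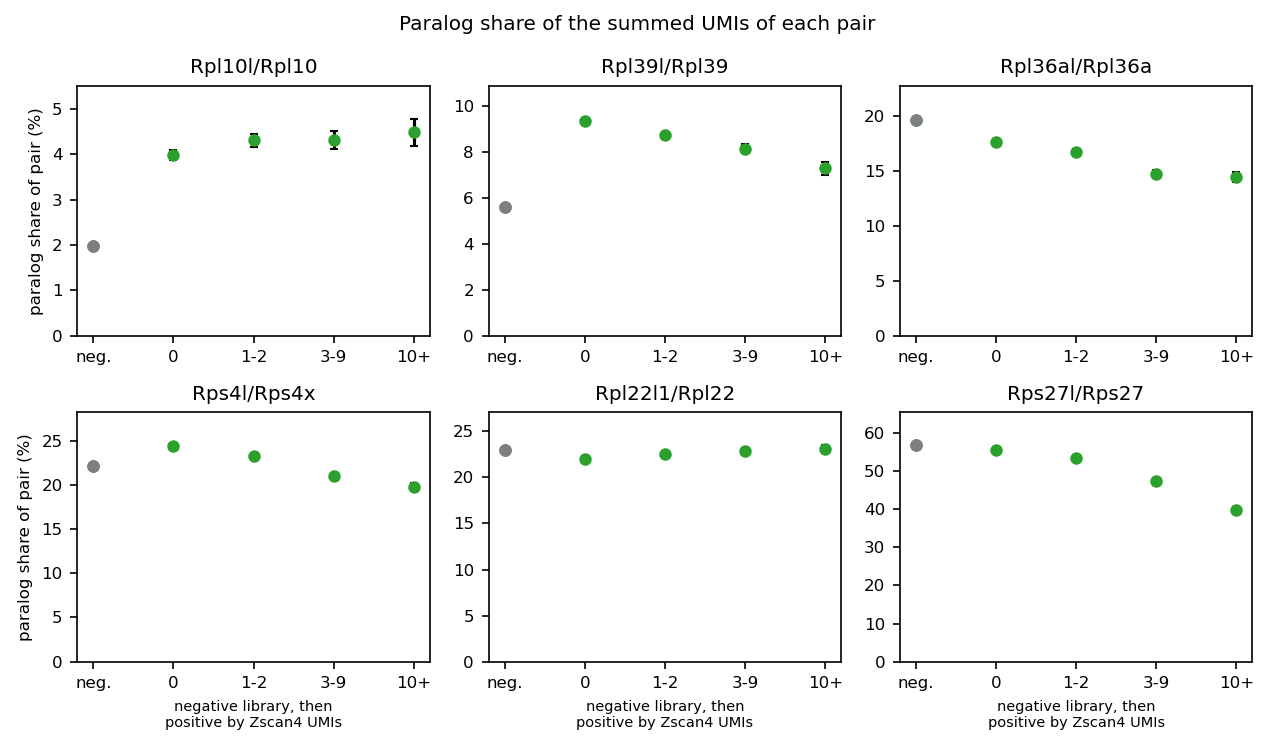
Share of the paralog in the summed UMIs of each of 6 pairs, in percent, for the negative library (grey) and the positive library by Zscan4 class (green), with exact binomial 95% intervals that cover counting error only; each axis starts at 0. Rps27l goes from 55.6% to 39.9% over the positive classes, Rpl39l stays above its negative level of 5.58%, and Rpl10l is at about 4% in all positive classes against 1.97%.

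Cell-to-cell spread was described by the Fano factor, the variance over the mean of counts thinned to 10000 UMIs, which is 1 for counting noise alone. Over 89 members with a mean of at least 0.1 the median was 2.07 in the positive and 1.69 in the negative library. The highest in the positive library were Rps24 (4.69), Rps12 (4.50), Rplp0 (4.09), Rps20 (4.06) and Rpl12 (3.94). Rplp0 had a median of 27 thinned UMIs per cell in both libraries. Its highest single cell had 232 in the positive and 63 in the negative library. In the negative library its Fano factor was 1.80. Rpl12 was the exception to the order of the libraries among these named genes, with 5.43 in the negative library, the highest value there.

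Other genes of translation were described by lists outside the name rule. Of 3 remaining ribosome genes, 1 was at least 1.2-fold higher and 2 lower between libraries. Fau (2335 and 3033 CPM), which encodes a subunit fused to a ubiquitin-like protein, had a log2 ratio of -0.38, and Rack1, a scaffold on the small subunit, had 0.34. Of 5 elongation factors, 1 was at least 1.2-fold higher (Eef2, 923 and 672 CPM) and 1 lower (Eef1d, 674 and 876 CPM). Of 14 other terminal oligopyrimidine genes, 4 were at least 1.2-fold higher and 3 lower, where the backgrounds were 39.1% and 17.4%, among them Eif4a2 (307 and 174 CPM) at 0.82, and Gas5 (330 and 545 CPM) and Snhg1 (204 and 314 CPM), both snoRNA hosts, at -0.72 and -0.62. Of the mitochondrial ribosome genes, 31 of 78 were at least 1.2-fold lower and 2 higher, against the same backgrounds. On the lower side 7 were past 1.5-fold, where the background was 4.89%, led by Mrps31 (61.8 and 125 CPM, a ratio of 0.496), Mrps12 (log2 ratio -0.76) and Mrps21 (-0.72), with Mrpl52, Mrps18a, Mrpl27 and Mrps24 behind them.

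Over Zscan4 classes the mitochondrial ribosome genes had a median of -0.40, with 52 of 77 at least 1.2-fold lower and 5 higher, where the members had 11 and 3 of 89. The backgrounds were 38.5% lower and 27.2% higher, and the 245 abundant genes outside the list had a median of -0.34, with 55.5% lower. Mrps12 was at 28.0 CPM with 10 or more and 82.9 CPM with 0 Zscan4 UMIs, and Mrps31 at 28.3 and 78.0 CPM. Of 15 regulators, 5 were past 1.5-fold, all lower, where the backgrounds were 17.3% lower and 16.0% higher: Myc (5.94 and 15.9 CPM), a transcriptional activator of ribosome genes, Mycn (18.5 and 38.7 CPM), the translation repressors Eif4ebp1 (385 and 735 CPM) and Eif4ebp2 (67.8 and 115 CPM), and Larp1 (58.9 and 94.9 CPM). None of the 14 regulators past the minimum reached 1.5-fold between libraries, where the backgrounds were 4.89% lower and 17.6% higher. At 1.2-fold 4 were higher and 4 lower, with backgrounds of 39.1% and 17.4%.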

How the data were processed

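Per the labels, the measurement was single-cell RNA in 1 MERVL-GFP positive and 1 MERVL-GFP negative library. The deposited matrices hold raw counts, 1 whole number for each gene in each cell, read here as UMIs because each barcode has 16 bases; the labels do not state molecule counting, and their protocols describe kits for bulk RNA. The submitters' processing notes name FastQC 0.11.2, Trim Galore 0.6.4, STAR 2.7.6a and mm10, without role or order. The annotation and cell calling are not given in the sources used here. In GENCODE M21 (GRCm38), 52081 of 55415 gene IDs and all 92 members were found.

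Cells with at least 1000 UMIs, 500 genes and at most 20% mitochondrial UMIs were kept, which removed 7. Doublets were not called; an alternative left out cells above 2 times the median UMIs. UMIs were summed per library or class and scaled to CPM; ratios used CPM + 1, and genes counted past a fold needed 50 UMIs and 10 CPM in a group. Zscan4 was read after thinning to 10000 UMIs. Intervals are exact (Poisson, Clopper-Pearson, conditional) at 95%. The steps were tested on simulated data. The genes named were the paralogs with parents, the 10 members with the highest CPM in either library, the 5 highest and 5 lowest in each comparison, the 5 highest Fano factors and list genes past 1.5-fold; any other gene was picked with its values in view, and some genes these rules name are not reported here. The members and lists were chosen with earlier results of these data known. TMM factors came from edgeR 4.0.16 in R 4.3.3. All else ran in Python 3.11.15 with scipy 1.17.1, numpy 2.4.6, matplotlib 3.10.9 and pandas 2.3.3.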

Additional observations from a re-analysis of the deposited data

How the results depend on the processing

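No paired analysis was possible because positive and negative cells came as 1 library each, which also left no library to omit. Alternatives without the shared barcodes and the counts over Zscan4 classes were chosen after seeing the data.

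The share of member UMIs in the positive and negative library was 22.99% for the positive with the stricter cell filter, 22.88% and 26.24% as a mean over cells, 22.98% and 26.21% without cells above 2 times the median UMIs, 22.88% and 26.24% without endoderm-marker cells, 23.10% and 26.49% in cells with 20000 to 40000 UMIs, 23.57% and 26.63% outside mitochondrial genes and 23.21% and 26.52% with -ps symbols added. The positive share was below the negative one in each of these.

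The median log2 ratio between libraries was -0.47 with TMM and -0.48 with median-of-ratios scaling, and the counts of members at 1.2-fold were 3 higher and 75 lower with both. With CPM scaling as reported, the counts at a fold of 1.5 were 3 higher and 2 lower, and at a fold of 2, 0 and 0. Among the named genes whose interval excluded a ratio of 1, those reversed with TMM and median-of-ratios scaling were Rplp0 (-0.18 and -0.20) and Rps12 (-0.078 and -0.095).

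Over Zscan4 classes, the share at 10 or more and at 0 was 22.28% and 23.08% without thinning, 21.95% and 22.99% without endoderm-marker cells, 22.27% and 23.12% in cells with 20000 to 40000 UMIs, 23.07% and 23.58% outside mitochondrial genes and 22.39% and 23.08% as a mean over cells. At 0 it was 22.96% after thinning to 5000 and 23.04% without cells above 2 times the median, and at 20 or more it was 21.40%. The median of members was 0.059 with TMM, 0.071 with median-of-ratios scaling and -0.13 for 20 or more. Counts were 11 higher and 4 lower with TMM, 12 and 4 with median-of-ratios, 6 lower after thinning to 5000, where the background was 36.0%, and 19 lower for 20 or more, where it was 42.5%. Among the named genes whose interval excluded a ratio of 1, those reversed with TMM and median-of-ratios scaling were Rpl10 (0.087 and 0.098), Rpl30 (0.0080 and 0.019), Rpl7 (0.053 and 0.064), Rplp1 (0.090 and 0.10), Rps23 (0.058 and 0.070) and Rps3a3 (0.099 and 0.11). Those reversed at 20 or more were Rpl13a (-0.023), Rpl36a (-0.0021) and Rps4x (-0.023). Rpl12, Rpl39, Rps23rg1 and Rps3a1, whose intervals included 1, also changed sign over Zscan4 classes in some settings.

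No paralog share moved by more than its interval under the stricter cell filter or without a cell filter. Depth limits Rpl3l, Rps23rg1 and Rpl32l, whose intervals are wide, and the missing replicate library limits every comparison.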
